A study of Mus musculus with 10 samples.

Results

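Genes that make, break down or carry N-acetylaspartate (NAA) and N-acetylaspartylglutamate (NAAG) were followed in brains of wildtype mice and of knockouts of the transporter gene Abcc5. The 8 genes were chosen by symbol from the 25050 genes of the deposited table for a part in handling these molecules: Nat8l, Rimkla, Rimklb, Folh1, Naalad2, Aspa, Slc17a5 and Slc13a3. All 8 had enough counts to be tested, among 14526 tested genes. The wildtype group (Abcc5+/+) had 5 brains and the knockout group (Abcc5-/-) had 5 brains, all of the FVB/NJ strain, with 1 RNA library of polyadenylated RNA per brain. The design of the knockout allele, the sex and the age of the animals are not given in the sources used here. The series concerns ABCC5 as a carrier of conjugates of glutamate, and the comparison asks whether the genes that handle such a conjugate differ when the transporter gene is disrupted.

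NAA is among the most abundant small molecules of the brain and is made in neurons from aspartate and acetyl-CoA. Neurons also join it to glutamate to make NAAG, a peptide that is stored in synaptic vesicles and acts on a group of metabotropic glutamate receptors. Released NAAG is cut by peptidases on the outside of glial cells, and NAA is taken up by glia and split in oligodendrocytes into acetate and aspartate. Loss of this last step causes Canavan disease in humans.

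The libraries held 7731294 to 23588335 counts. The replicates are separate libraries by their labels, which do not say whether the brains came from separate litters. Abcc5 itself was at 299.2 to 325.9 CPM (counts relative to the scaled library total) in the wildtype and 210.7 to 226.2 CPM in the knockout group, so its transcript was reduced and not absent. Knockout replicate 3 stood apart from the other libraries. Its 10 cerebellar markers summed to 848.5 CPM, against 2315 to 2653 CPM in the other 9 libraries. Most of its sum was Itpr1, at 717.8 CPM (1271 to 1370 CPM in wildtype). Pcp2, Gabra6 and Cbln3 were at 0.396, 1.58 and 2.51 CPM, where the lowest wildtype values were 23.1, 150.0 and 272.0 CPM. Zic1 fell less far, to 53.3 CPM against at least 205.1 CPM in wildtype. Values without knockout replicate 3 are given where they matter. Markers of neurons (9 of the 10 listed were in the table), oligodendrocytes, astrocytes and microglia were present in every library, as the label of brain requires. They do not show whether each brain was sampled whole. The summed level of the 9 microglial markers was 231.7 to 250.4 CPM in the wildtype and 267.2 to 320.4 CPM in the knockout group, without overlap. Of the 9, 2 rose by edgeR, the complement genes C1qb and C1qc (adjusted p 0.0378 and 0.00437), beside 0.213% of all tested genes. Taken singly, 4 of the 9 did not overlap between the groups, beside 4.19% of all tested genes.

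Per kilobase of exon, the gene for NAA synthesis stood far above the rest. Nat8l, the N-acetyltransferase that makes NAA, averaged 70.1 ± 2.08 CPM per kb in the wildtype and 69.5 ± 3.39 CPM per kb in the knockout group (SD, n = 5 each), which was 65.1% of the summed level of the 8 genes in wildtype. Rimkla and Rimklb, the ligases that join NAA to glutamate, followed with 9.23 ± 0.523 and 8.65 ± 0.490 CPM per kb in wildtype (SD, n = 5 each). Slc17a5, which encodes the carrier sialin of lysosomes and synaptic vesicles, had 6.201 ± 0.591 CPM per kb, and Aspa, the aspartoacylase that splits NAA, had 4.94 ± 0.440 CPM per kb. Slc13a3, a sodium-dependent dicarboxylate carrier that takes up NAA, had 4.56 ± 0.682 CPM per kb, and Folh1, the peptidase glutamate carboxypeptidase II, had 3.29 ± 0.273 CPM per kb. Naalad2, glutamate carboxypeptidase III, was lowest with 0.663 ± 0.134 CPM per kb. In that order, the ranges of Rimkla and Rimklb and those of Aspa and Slc13a3 overlapped in wildtype, and the other neighbours did not. In knockout brains the order of the means was the same, and the ranges of Rimklb and Slc17a5 and of Slc13a3 and Folh1 overlapped as well.

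**Figure D1:**
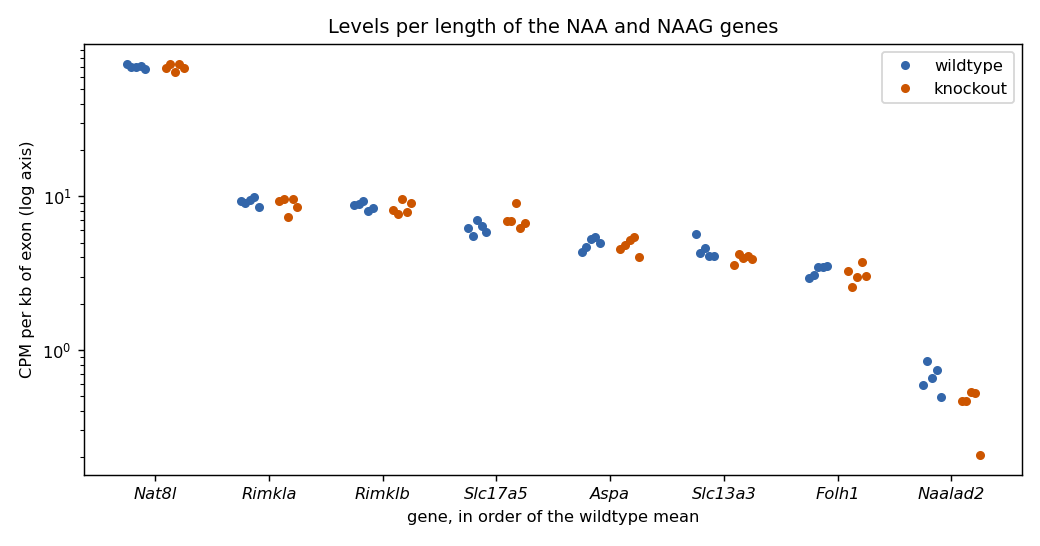
Levels of the 8 genes in CPM per kilobase of exon on a log axis, with 5 wildtype (blue) and 5 knockout (orange) libraries as single points. Nat8l lies at about 70.1 CPM per kb in wildtype and Naalad2 at 0.663 CPM per kb, with the other genes between 3.29 and 9.23 CPM per kb.

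The place of Aspa depends on the length used. Its annotated exons together cover 5954 bases in GENCODE M21, while its longest coding transcript has 1746 bases. With the longest coding transcript of each gene as the length, Aspa had 16.9 ± 1.501 CPM per kb in wildtype (SD, n = 5) and ranked 2 of the 8, and Rimklb ranked above Rimkla. Nat8l stayed highest and Naalad2 lowest under both lengths. Within a library, the level of Nat8l per exonic kilobase was 14.3 ± 1.62 times that of Aspa in wildtype and 14.6 ± 1.75 times in knockout brains (SD, n = 5 each), which is a difference smaller than the spread within either group.

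None of the 8 genes passed in the comparison of knockout with wildtype brains, and for 5 of them the means lay within 6 percent of each other. By edgeR's quasi-likelihood test, 0 of 8 had an adjusted p under 0.05, beside 1.18% of all tested genes (171 of 14526, with 0.213% higher and 0.964% lower in knockout), so with 8 genes the count is close to the background and is not a result about them. Naalad2 and Slc13a3, 2 of the 8, had an unadjusted p under 0.05, beside 14.8% of all tested genes. The Wald test of DESeq2 called 0 of 8 as well, and so did limma-voom, whether or not samples were weighted. The groups overlapped for all 8 genes, while 4.19% of all tested genes had groups that did not overlap. The median log2 fold change of the 8 genes was -0.041, beside 0.0042 over all tested genes, and 7 of the 8 values lay below 0, beside 48.4% of all tested genes.

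**Figure D2:**
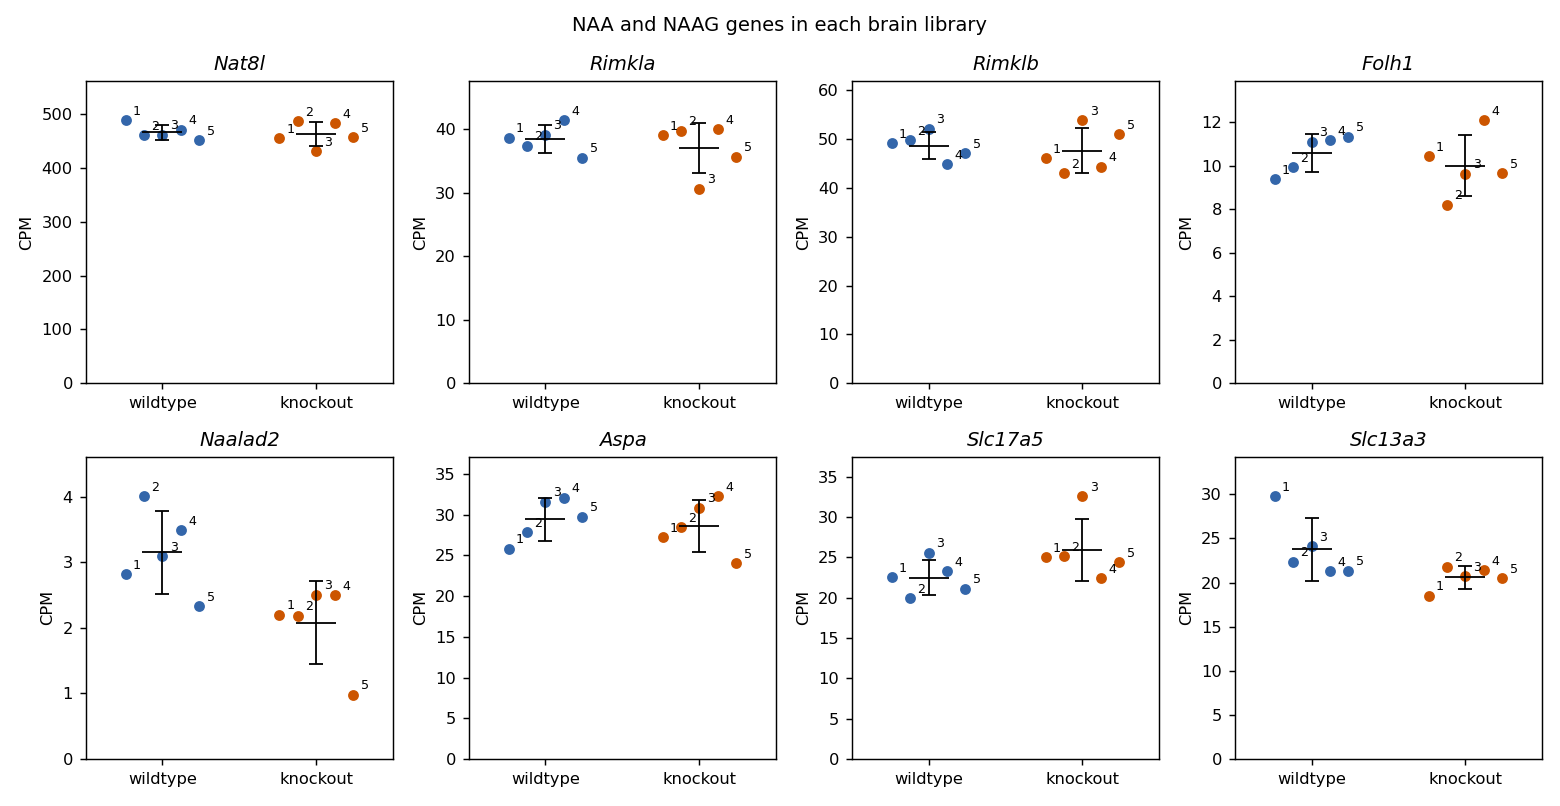
Each panel gives 1 gene in CPM, with the 5 wildtype libraries in blue and the 5 knockout libraries in orange, numbered by replicate, and the mean ± SD in black; axes start at 0. The groups overlap in all 8 panels, with knockout replicate 5 low for Naalad2 (0.977 CPM), knockout replicate 3 high for Slc17a5 (32.6 CPM) and wildtype replicate 1 high for Slc13a3 (29.8 CPM).

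The genes of synthesis were the most tightly measured. Nat8l (ENSMUSG00000048142, chromosome 5, 34338633 to 34348565 in the deposited coordinates, whose genome build is not named) had 488.9, 461.2, 462.4, 471.4 and 452.4 CPM in wildtype replicates 1 to 5 and 456.2, 487.0, 432.0, 484.0 and 458.2 CPM in knockout replicates 1 to 5. Knockout replicate 3 was the lowest of all libraries and the other 4 knockouts lay within the wildtype range. The log2 fold change was -0.011 (SE 0.042, 95% interval -0.10 to 0.079, edgeR adjusted p 0.944), and the interval corresponds to 0.932-fold to 1.06-fold. These intervals are for single genes and are not adjusted for the number of genes tested.

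Rimkla (ENSMUSG00000048899, chromosome 4, 119137888 to 119165233), a ligase that forms NAAG, had 38.7, 37.4, 39.1, 41.4 and 35.5 CPM in wildtype and 39.0, 39.8, 30.6, 39.9 and 35.6 CPM in knockout replicates 1 to 5. Knockout replicate 3 was the lowest of all libraries and the other 4 knockouts lay within the wildtype range. The log2 fold change was -0.040 (SE 0.071, 95% interval -0.19 to 0.11, edgeR adjusted p 0.845), and it was 0.015 without knockout replicate 3. Rimklb (ENSMUSG00000040649, chromosome 6, 122397314 to 122436340), its paralog, had 49.1, 49.8, 52.1, 44.8 and 47.1 CPM in wildtype and 46.1, 43.0, 53.8, 44.3 and 51.0 CPM in knockout replicates 1 to 5. Here knockout replicate 3 was the highest of all libraries, and the groups covered nearly the same range. The log2 fold change of Rimklb was -0.041 (SE 0.066, 95% interval -0.18 to 0.10, edgeR adjusted p 0.828), and it ran from -0.087 without knockout replicate 3 to -0.0023 without knockout replicate 2. Their ratio per exonic kilobase, Rimkla over Rimklb, was 1.07 ± 0.1003 in wildtype and 1.07 ± 0.204 in knockout brains (SD, n = 5 each), with the lowest value, 0.769, in knockout replicate 3.

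The peptidases that cut NAAG were low in counts. Folh1 (ENSMUSG00000001773, chromosome 7, 93867862 to 93924374) had 9.36, 9.92, 11.1, 11.2 and 11.3 CPM in wildtype and 10.4, 8.20, 9.63, 12.1 and 9.64 CPM in knockout replicates 1 to 5. Knockout replicates 2 and 4 were the lowest and the highest of all 10 libraries, and the wildtype libraries lay between them. Folh1 had a log2 fold change of -0.058 (SE 0.11, 95% interval -0.29 to 0.18, edgeR adjusted p 0.859).

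Naalad2 (ENSMUSG00000043943, chromosome 9, 18126395 to 18207439) had the largest difference of the 8 genes. It had 2.82, 4.01, 3.10, 3.49 and 2.33 CPM in wildtype and 2.20, 2.19, 2.51, 2.50 and 0.977 CPM in knockout replicates 1 to 5. Only wildtype replicate 5 lay within the knockout range, and knockout replicate 5 was lowest. The group means were 3.15 ± 0.639 CPM for wildtype and 2.07 ± 0.633 CPM for knockout (SD, n = 5 each), a log2 fold change of -0.54 (SE 0.20, 95% interval -0.96 to -0.12, unadjusted p 0.0158, edgeR adjusted p 0.219), which did not pass. These values rest on 20 to 56 counts per wildtype library and 8 to 59 counts per knockout library. The coefficient of variation between libraries was 20.3% in wildtype and 30.5% in knockout, and counting error alone gives 17.9% and 23.2%, so the spread of this gene was not far above counting error. The count of 8 in knockout replicate 5 has a 95% exact Poisson interval of 0.422 to 1.92 CPM, and without that library the log2 fold change was -0.42 (edgeR adjusted p 0.234). At this depth a difference in Naalad2 of the size seen could not be told from none after adjustment over all genes.

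The gene for the breakdown of NAA had nearly equal means in the groups and did not pass. Aspa (ENSMUSG00000020774, chromosome 11, 73118494 to 73140309) had 25.8, 27.9, 31.6, 32.1 and 29.75 CPM in wildtype and 27.2, 28.5, 30.9, 32.3 and 24.05 CPM in knockout replicates 1 to 5. Both groups ran from the mid twenties to just above 32 CPM. For Aspa the log2 fold change was -0.021 (SE 0.083, 95% interval -0.20 to 0.16, edgeR adjusted p 0.947).

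The carriers differed in opposite directions, and neither passed. Slc17a5 (ENSMUSG00000049624, chromosome 9, 78384295 to 78435848) had 22.6, 19.9, 25.5, 23.3 and 21.1 CPM in wildtype and 25.01, 25.1, 32.6, 22.4 and 24.4 CPM in knockout replicates 1 to 5. Knockout replicate 3 lay above all other libraries, and the other 4 knockouts lay within the wildtype range. The log2 fold change was 0.19 (SE 0.093, 95% interval -0.013 to 0.38, edgeR adjusted p 0.376), and it was 0.11 without knockout replicate 3, the library low in cerebellar markers, whose part in the difference was not tested further.

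Slc13a3 (ENSMUSG00000018459, chromosome 2, 165230528 to 165298730) had 29.8, 22.3, 24.1, 21.3 and 21.4 CPM in wildtype and 18.5, 21.8, 20.7, 21.4 and 20.5 CPM in knockout replicates 1 to 5. Wildtype replicate 1 was the highest and knockout replicate 1 the lowest, and the remaining libraries lay close together. The log2 fold change was -0.22 (SE 0.093, 95% interval -0.41 to -0.018, unadjusted p 0.0345, edgeR adjusted p 0.295), and it was -0.097 without wildtype replicate 1 (edgeR adjusted p 0.525). All 7 meningeal markers also had log2 fold changes below 0, beside 48.4% of all tested genes. None of the 7 passed, beside 1.18% of all tested genes. Their summed level was 194.8 to 222.8 CPM in the wildtype and 148.8 to 201.0 CPM in the knockout group. Over the 10 libraries, Slc13a3 and the mean log2 CPM of the meningeal markers had r = 0.67 (permutation p 0.0276, adjusted 0.143 over 32 relations) and rho = 0.68 (permutation p 0.0339, adjusted 0.192), with r = 0.60 without the 2 libraries farthest from the median of the marker score. Those 2 were knockout replicates 1 and 3, and wildtype replicate 1, highest in both, was kept. The groups were pooled, so the difference between them enters these values. In bulk tissue fewer cells of a type and less RNA per cell cannot be told apart.

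The authors' deposited table gave closely similar values. In the authors' deposited table the log2 fold change was -0.55 for Naalad2 (adjusted p 0.371), -0.21 for Slc13a3 (adjusted p 0.447) and 0.17 for Slc17a5 (adjusted p 0.570). In the authors' deposited table the other 5 genes had log2 fold changes between -0.059 and -0.0074 and adjusted p-values of 0.822 to 0.980.

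**Figure D3:**
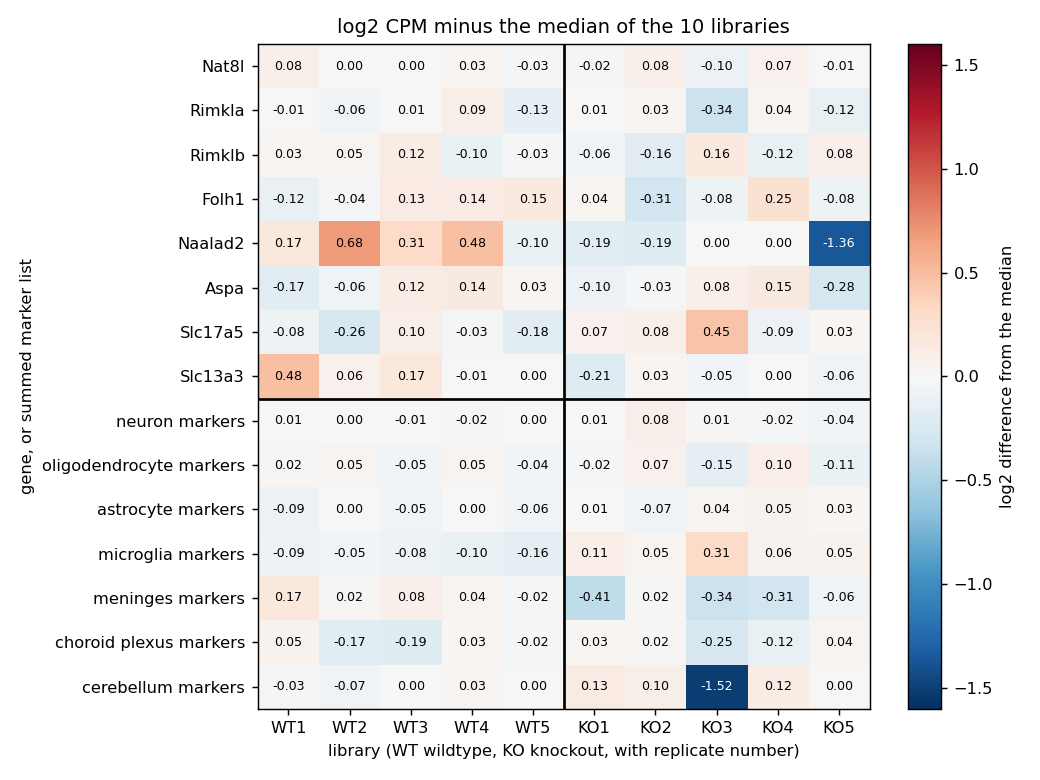
Each cell gives log2 CPM minus the median of the 10 libraries, for the 8 genes (above the line) and for the summed CPM of 7 marker lists (below it); wildtype libraries are on the left and knockout libraries on the right. Knockout replicate 3 has -1.52 for cerebellar markers, -0.34 for Rimkla and 0.45 for Slc17a5, and knockout replicate 5 has -1.36 for Naalad2.

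How the 8 genes varied together over the 10 libraries was examined in all 28 pairs, with Pearson's r and Spearman's rho of log2 CPM. No pair passed after adjustment over the 28, and 3 had an unadjusted permutation p under 0.05 for r. Nat8l and Rimkla, which act in sequence in NAAG synthesis, had r = 0.81 (permutation p 0.00479, adjusted 0.134) and rho = 0.71 (permutation p 0.0268, adjusted 0.402), with r = 0.69 without the 2 libraries farthest from the median of Nat8l and 0.61 without knockout replicate 3. The paralogs Rimkla and Rimklb had r = -0.70 (permutation p 0.0168, adjusted 0.235) and rho = -0.70 (permutation p 0.0304, adjusted 0.402), with r = -0.69 without the 2 libraries farthest from the median of Rimkla and -0.54 without knockout replicate 3. Nat8l and Rimklb had r = -0.65 (permutation p 0.0414, adjusted 0.386) and rho = -0.53 (permutation p 0.124, adjusted 0.625), with r = -0.68 without the 2 libraries farthest from the median of Nat8l and -0.46 without knockout replicate 3.

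Against the mean log2 CPM of neuronal, oligodendrocyte, astrocyte and meningeal markers, a comparison added after seeing the data, none of 32 relations passed after adjustment. The closest was Nat8l with neuronal markers, with r = 0.84 (permutation p 0.00181, adjusted 0.0579) and rho = 0.78 (permutation p 0.0106, adjusted 0.188), and r = 0.83 without the 2 libraries farthest from the median of the marker score. Wildtype replicate 1 and knockout replicates 2 and 4 were highest in both Nat8l and the neuronal score. They were also the deepest libraries (19795743, 22090371 and 23588335 counts), and a part of depth in this relation was not tested. Nat8l was not close to neuronal markers alone. It had r = 0.70 with oligodendrocyte markers (permutation p 0.0230, adjusted 0.143). With astrocyte markers it had r = 0.70 (permutation p 0.0462, adjusted 0.143) and rho = 0.54 (permutation p 0.113, adjusted 0.283). That r was 0.42 without knockout replicate 3 and 0.18 without the 2 libraries farthest from the median of the marker score. Rimklb, also a gene of synthesis, had r = -0.70 with neuronal markers (permutation p 0.0175, adjusted 0.143). That r was -0.31 without the 2 libraries farthest from the median of the marker score and -0.60 without knockout replicate 3. Rimklb also had r = -0.67 with oligodendrocyte and -0.61 with astrocyte markers (permutation p 0.0353 and 0.0470, adjusted 0.143 each). Aspa, whose enzyme acts in oligodendrocytes, was not among the 10 relations with an unadjusted p under 0.05. The summed level of the 12 oligodendrocyte markers was 7266 to 7762 CPM in the wildtype and 6737 to 8061 CPM in the knockout group. None of the 12 passed by edgeR, beside 1.18% of all tested genes.

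The genes most like a member were ranked by r of the deviations from the group means over 10 libraries, among 11873 genes with a mean of at least 5 CPM, as a description with no test. Rimkla was most like Arl4c, Bcar1 and Nxn (r 0.95 to 0.96), and Rimklb was most like Wdr34, Slc9a9 and Hnrnpr (r 0.94 to 0.97). Folh1 was most like Tmem176a, Fxr1 and Fubp1 (r 0.89 to 0.92), Aspa was most like Galns, Cxx1b and Aimp2 (r 0.88 each), Slc17a5 was most like Spats2l, Tmem132d and Ppp2r5e (r 0.93 to 0.97), and Slc13a3 was most like Tfe3, Gnl1 and Capn10 (r 0.92 to 0.93). Naalad2 was below 5 CPM and was not ranked. The highest of many values over 10 libraries are large by the choice itself. Without knockout replicate 3, none of the 3 genes of Rimkla or of Aspa stayed among the first 3. For Slc17a5 and for Slc13a3, 1 of 3 stayed, while 2 of 3 did for Rimklb and Folh1.

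Among the genes around this pathway, in lists chosen with earlier results of these data known, 1 passed. Slc15a2 encodes a proton-coupled carrier of small peptides, which in rat has been linked to the uptake of NAAG by astrocytes. It had 66.2, 69.8, 71.9, 76.8 and 70.4 CPM in wildtype and 51.8, 57.0, 49.3, 56.0 and 56.5 CPM in knockout replicates 1 to 5. Every knockout library lay below every wildtype library, and 4.19% of all tested genes had groups that did not overlap in either direction. The means were 71.0 ± 3.84 and 54.1 ± 3.40 CPM (SD, n = 5 each), a reduction of 23.8% with a log2 fold change of -0.38 (SE 0.054, 95% interval -0.50 to -0.27, edgeR adjusted p 0.0019). It passed under all 20 alternatives tried, with adjusted p-values up to 0.00925. Slc15a2 lies on chromosome 16 (36750264 to 36785048 in the deposited coordinates), as Abcc5 does, 16.3 Mb away, and 1.75% of the tested genes of that chromosome other than Abcc5 passed (8 of 458, Slc15a2 included). A part of the shared chromosome in this difference was not tested, nor was one of the cells behind the microglial markers, whose summed levels did not overlap between the groups either.

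**Figure D4:**
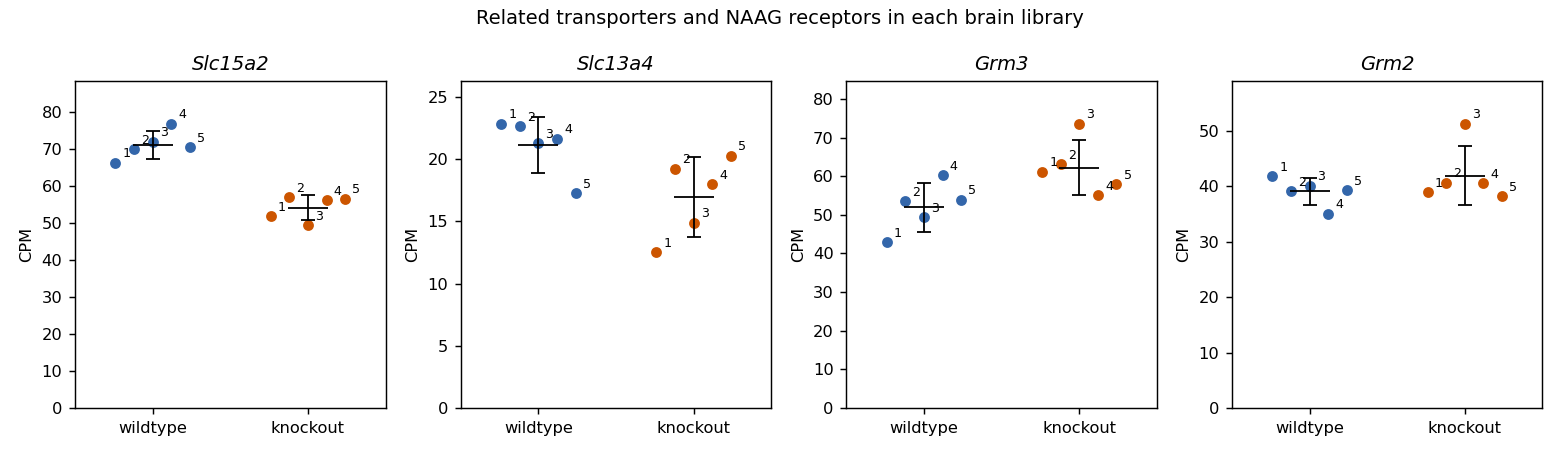
Each panel gives 1 gene in CPM, with 5 wildtype (blue) and 5 knockout (orange) libraries numbered by replicate and the mean ± SD in black; axes start at 0. The groups do not overlap for Slc15a2 (66.2 to 76.8 against 49.3 to 57.0 CPM) and overlap for Slc13a4, Grm3 and Grm2.

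Of 15 relatives of the 8 genes by family or activity, 12 were in the table and 6 had enough counts to be tested. Of these 6, Slc15a2 fell and none rose, beside 0.964% of all tested genes that fell and 0.213% that rose. The lists were chosen with earlier results of these data known, so the count of 1 is not a fair comparison with these shares. Slc13a4, a sodium-dependent sulfate carrier of the Slc13a3 family, had 22.9, 22.6, 21.3, 21.6 and 17.3 CPM in wildtype and 12.5, 19.2, 14.9, 18.002 and 20.3 CPM in knockout replicates 1 to 5. Wildtype replicate 5 and knockout replicates 2, 4 and 5 lay within the other group's range. Its log2 fold change was -0.30 (SE 0.11, edgeR adjusted p 0.220), which did not pass. The summed meningeal markers were lowest in knockout replicates 1, 3 and 4, at 148.8 to 159.6 CPM, and the part of the meninges in Slc13a4 was not tested. Nat8, a relative of Nat8l, averaged 1.47 ± 0.300 CPM in the wildtype and 1.11 ± 0.507 CPM in the knockout group (SD, n = 5 each), and their log2 difference was -0.29 (adjusted p 0.628 by edgeR). The median log2 fold change of the 6 was -0.13.

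The receptors of NAAG were both higher on average in knockout brains, and neither passed. Grm3, the metabotropic glutamate receptor at which NAAG acts, had 42.9, 53.5, 49.4, 60.2 and 53.9 CPM in wildtype and 61.1, 63.1, 73.6, 55.2 and 57.9 CPM in knockout replicates 1 to 5. Knockout replicates 1, 2 and 3 lay above all wildtype libraries and the others lay within their range. For Grm3 the log2 fold change was 0.26 (SE 0.089, unadjusted p 0.0111, edgeR adjusted p 0.188). Without wildtype replicate 1, the lowest library, it was 0.18 (edgeR adjusted p 0.237). Over the 20 alternatives it ran from 0.18 to 0.32 and passed under none. Grm2, its close relative, had 39.1 ± 2.49 and 41.9 ± 5.35 CPM (SD, n = 5 each), and their log2 difference was 0.093 (adjusted p 0.610 by edgeR) and 0.024 without knockout replicate 3.

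**Figure D5:**
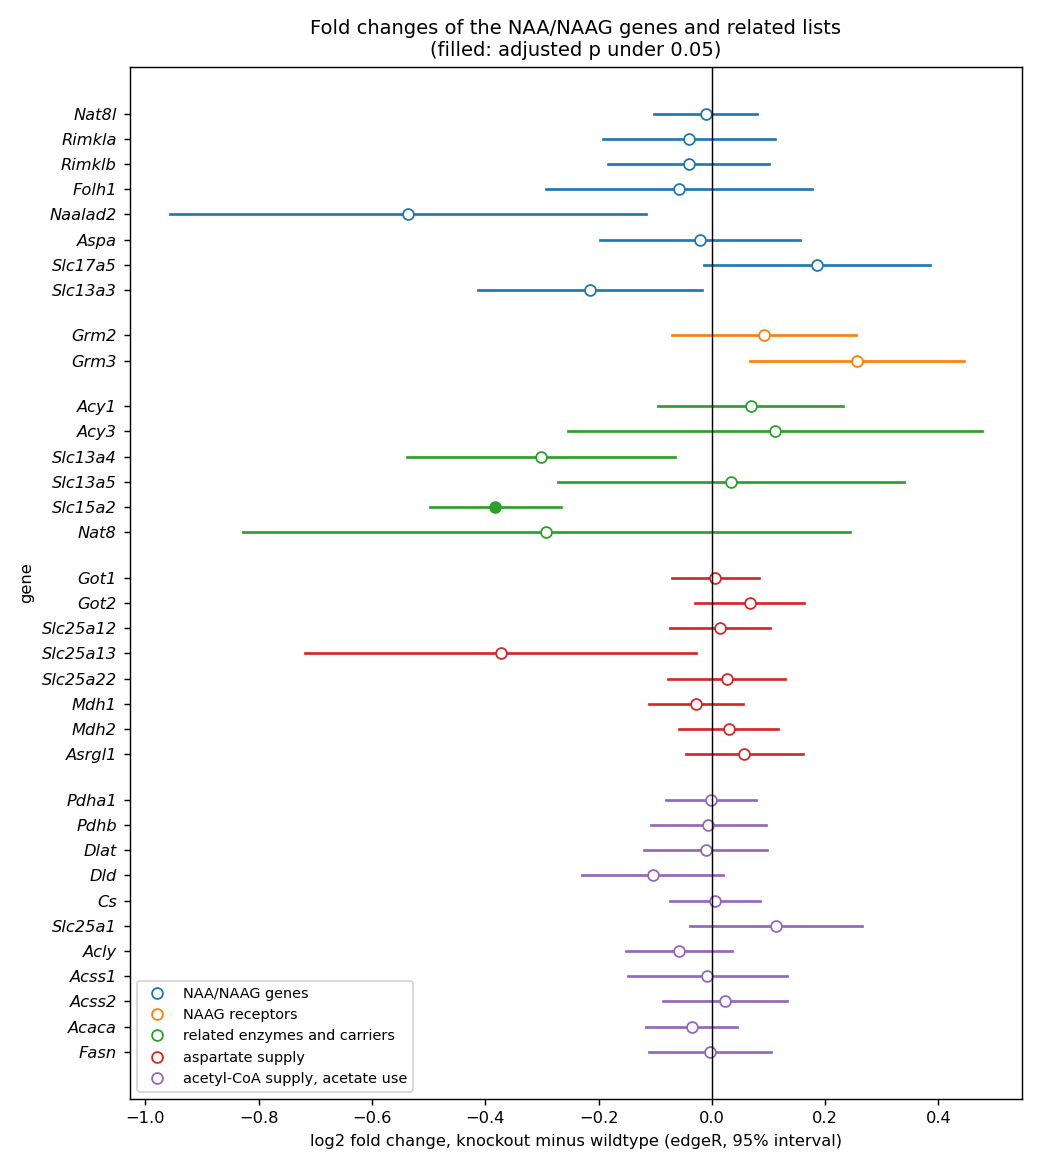
Log2 fold change of knockout minus wildtype for the 8 genes and 4 related lists, with unadjusted 95% intervals from edgeR; filled points have an adjusted p under 0.05. Slc15a2 at -0.38 is the filled point, and Naalad2 at -0.54 has the widest interval of the 8 genes.

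Of 8 genes that supply aspartate, 0 passed by edgeR, beside 1.18% of all tested genes, 1 had an unadjusted p under 0.05, beside 14.8%, and the median log2 fold change was 0.020. DESeq2 and both forms of limma-voom also called none of them. Slc25a13, an aspartate-glutamate carrier of mitochondria, averaged 5.00 ± 0.711 CPM in the wildtype and 3.84 ± 0.955 CPM in the knockout group (SD, n = 5 each), and their log2 difference was -0.37 (adjusted p 0.300 by edgeR). The aspartate aminotransferases Got1 and Got2 had log2 fold changes of 0.0063 and 0.067, the malate dehydrogenase Mdh1 had -0.028 and the asparaginase Asrgl1 had 0.057.

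Of 11 genes that supply acetyl-CoA or use acetate, 0 passed by edgeR, by DESeq2 or by either form of limma-voom, and 0 had an unadjusted edgeR p under 0.05, where all tested genes gave 1.18% and 14.8% by edgeR. Their median log2 fold change was -0.0061. Dld, a subunit of pyruvate dehydrogenase and related complexes, had the smallest p (log2 fold change -0.10, edgeR adjusted p 0.429), and the citrate carrier Slc25a1 and the citrate lyase Acly had 0.11 and -0.058. The fatty acid synthase gene Fasn and the citrate synthase gene Cs had log2 fold changes of -0.0033 and 0.0058.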

How the data were processed

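The deposited table holds counts per Ensembl gene for each of the 10 libraries, made by the authors, with TopHat2 2.0.6, TopHat, HTSeq, edgeR and limma named in the submitters' processing notes; the role and settings of each tool, the strand of counting and the genome build are not given in the sources used here. It also holds a log2 fold change and an adjusted p-value per gene by the authors, per the file headers; 629 and 8 of these cells are damaged and were not read. A second set of 10 columns with damaged numbers was not used.

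Counts were tested in R 4.3.3 with edgeR 4.0.16 (filterByExpr with minimum count 10 and total 15, TMM scaling, quasi-likelihood test with genotype alone, Benjamini-Hochberg adjustment over 14526 genes, threshold 0.05). CPM are scaled by TMM, with 2 as the prior count of log2 CPM. The SE and the 95% interval come from the F statistic. Intervals on counts cover counting error only. Totals of 7731294 to 23588335 counts set the precision. Exonic lengths came from GENCODE M21, which may differ from the annotation used for counting. Genes overlapping a member held at most 25 counts in all (Zmynd12, within Rimkla). Replicates differed by more than counting error (chi-square per degree of freedom 1.29 to 12.1). Correlations used 100000 permutations, two-sided, in Python 3.11.15 with scipy 1.17.1. Those between members and with markers pooled both groups without removing group means. The test was checked on simulated data.

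Genes named are the 8 members, Abcc5, list genes that passed, the 3 with the smallest p and the 2 most abundant in each list, and the 3 genes most like each ranked member except Nat8l, for which they are not reported here; C1qb and C1qc were named after their values were seen. The members and lists were chosen with earlier results of these data known. Alternatives were other scalings and filters, the replicate block, leaving out libraries, the 7 shallower libraries, limma-voom (limma 3.58.1) with and without sample weights, DESeq2 1.42.0 and other thresholds; leaving out knockout replicates 3 and 5 together was added after seeing the data.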

Additional observations from a re-analysis of the deposited data

Results flagged for a closer look

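In 16 groups of 5 libraries (8 genes in each genotype), 2 libraries lay far from the other 4 of their group by Dixon's test at 95%, which by chance flags about 1 in 20 groups. Naalad2 had 0.977 CPM in knockout replicate 5, from 8 counts, below the other knockouts at 2.19 to 2.51 CPM. Slc17a5 had 32.6 CPM in knockout replicate 3, the library with low cerebellar markers (848.5 CPM), above the other knockouts at 22.4 to 25.1 CPM.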

How the results depend on the processing

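None of the 8 genes passed an adjusted p of 0.05 under any of 20 alternatives, the smallest being 0.0936 for Naalad2 by limma-voom with sample weights. Of the 160 values, 147 kept the sign of the reported fold change. Naalad2, Slc13a3 and Slc17a5 kept it under all 20, and the other signs that turned belong to fold changes close to 0. With 1 library left out, Nat8l ran from -0.030 to 0.015, Rimkla from -0.071 to 0.015, Rimklb from -0.087 to -0.0023, Folh1 from -0.17 to 0.031 and Aspa from -0.078 to 0.025. Nat8l was 0.0057 with upper-quartile scaling and 0.013 by limma-voom with sample weights. Without knockout replicates 3 and 5 Nat8l was 0.027, Rimkla 0.044 and Aspa 0.022, and in the 7 shallower libraries Rimklb was 0.055.

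The count over all genes, 171, moved more. It was 76 to 341 with 1 library left out, 563 by limma-voom with sample weights, 259 by DESeq2, 63 and 373 at thresholds of 0.01 and 0.1, 31 in the 7 shallower libraries and 494 without knockout replicates 3 and 5. Of the counts with 1 library left out, the lowest was without wildtype replicate 4 and the highest without knockout replicate 3; fewer libraries enter each of these fits, and the cause was not tested beyond that. With the replicate number as a block it was 90. Deviations of libraries with the same number had r of -0.14 to 0.089, and 3 of 10 libraries correlated best with their own number. Knockout replicate 3 enters the mean behind every knockout deviation. The check was not repeated without it and cannot exclude that the numbers pair the libraries. The block changed no call of the 8 genes. Leaving out knockout replicate 3 changed no count of called genes in the 4 related lists. Depth limits Naalad2 most, at 8 to 59 counts per library.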
